A study of Mus musculus with 38 samples.

Results

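The metallothionein genes Mt1 and Mt2, the zinc exporter genes Slc30a1 and Slc30a2, the zinc importer genes Slc39a14 and Slc39a1, and Mtf1, the gene of the zinc-sensing transcription factor MTF-1, were examined promoter by promoter in mouse soleus muscle. A cluster of transcription start sites was assigned to one of these genes when its highest position lay within 500 bp, on the same strand, of an annotated 5′ end of the gene in GENCODE M21. Of 10819 clusters, 9 met this rule, and each of the 7 genes had at least 1. Slc30a2 and Slc39a14 had 2 clusters each, called here the upstream and the downstream promoter.

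Each library was made from the soleus, a postural muscle rich in slow fibres, of 1 young adult male C57BL/6J mouse. It was made by nAnT-iCAGE, which sequences the capped 5′ ends of RNA without PCR, so that each tag marks 1 RNA start. In experiment #1, the 4 Pre mice were fed freely and taken on day 1, the 8 Mid mice were fasted at low ambient temperature to bring on torpor and taken on day 2, at high as well as low metabolic rates, and the 4 Post mice were taken on day 3 after food was given back. Further mice were taken on day 2 without torpor: 4 HiT mice fasted at high ambient temperature, 4 Fed mice that kept their food at low ambient temperature, and 4 Dep mice that were fasted at low ambient temperature and touched gently whenever oxygen consumption began to drop. The labels and the study differ on food, since the labels mark the Fed libraries as starved and give the HiT mice food, and the study's account was followed here. The paper states that ambient temperature was set before day 1 and then not changed. By that account the Pre and the Fed mice both had food in the cool, on different days. The HiT mice differed from the Pre in food, temperature and day. Experiment #2 was a separate sampling of 2 Pre, 5 Mid and 3 Post mice.

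Metallothioneins are small cysteine-rich proteins that bind zinc and copper, buffer free zinc and react with oxidants. MTF-1 senses zinc and activates Mt1, Mt2 and Slc30a1 through metal response elements, so that these genes are widely used as readouts of free cellular zinc. The metallothionein genes are also known to respond to glucocorticoids, to inflammatory cytokines and to oxidative stress. Proteins of the SLC30 (ZnT) family move zinc out of the cytosol, and those of the SLC39 (ZIP) family move it in.

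Positions are those of mm10 (GRCm38), counted from 1. Mt2 (ENSMUSG00000031762.7) and Mt1 (ENSMUSG00000031765.8) lie side by side on the plus strand of chromosome 8. The Mt2 cluster spanned 94172448 to 94173186 with its highest position at 94172782, in an untranslated part of an exon and 78 bp before the nearest annotated 5′ end. The Mt1 cluster spanned 94178911 to 94179449 with its highest position at 94179240, 1 bp before the nearest annotated 5′ end. At 739 and 539 bp these were the widest of the 9 clusters, and the others spanned 129 to 418 bp. Slc30a1 (ENSMUSG00000037434.7), which encodes the zinc exporter of the plasma membrane, had its cluster on the plus strand of chromosome 1 from 191906657 to 191906884, with the highest position at 191906813.

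Slc30a2 (ENSMUSG00000028836.14) encodes a transporter that loads zinc into vesicles. Its upstream promoter lay on the plus strand of chromosome 4 from 134343111 to 134343287, with the highest position at 134343202. The downstream promoter spanned 134343843 to 134344151 with the highest position at 134344014, which is 812 bp farther along and 305 bp after the nearest annotated 5′ end. That position lies in exons of 4 transcripts and in the coding sequence of 2 of them. Whether its tags mark a separate promoter was not tested. Slc39a14 (ENSMUSG00000022094.15) encodes ZIP14, which carries zinc and also iron and manganese into cells and is known as an acute-phase gene of liver. Its upstream promoter lay on the minus strand of chromosome 14 from 70351280 to 70351507, with the highest position at 70351415, exactly at an annotated 5′ end of the gene. The downstream promoter, from 70331228 to 70331645 with the highest position at 70331475, lay 19940 bp farther along the gene. This position was 43 bp after the nearest annotated 5′ end, in an exon of 1 transcript and in an intron of 9 others. Slc39a1 (ENSMUSG00000052310.9) encodes a zinc importer of the plasma membrane and had its cluster on the plus strand of chromosome 3 from 90248098 to 90248294. That of Mtf1 (ENSMUSG00000028890.13) lay on the plus strand of chromosome 4 from 124802522 to 124802650.

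**Figure D1:**
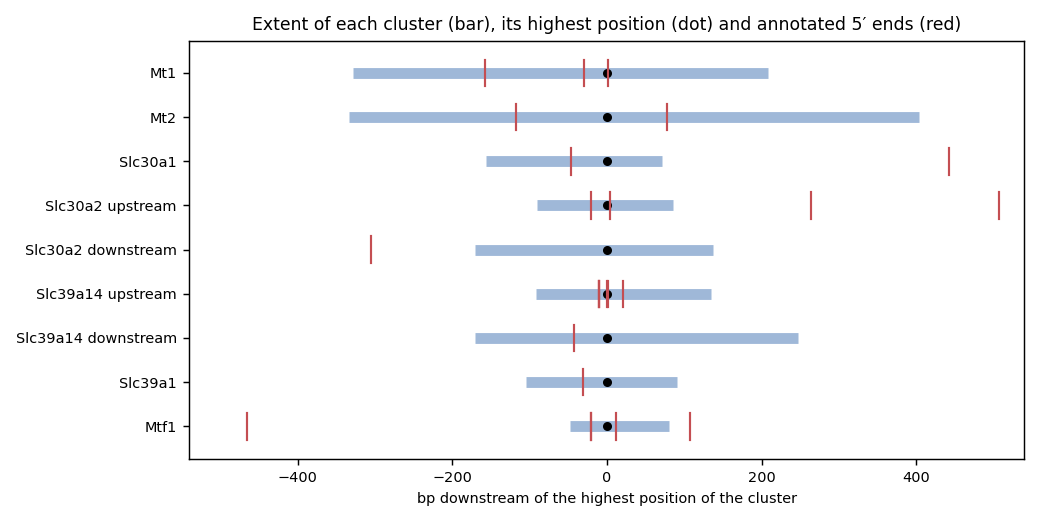
Extent of the 9 clusters in bp along the direction of transcription, with 0 at the highest position. Bars are clusters, dots their highest positions and red lines annotated 5′ ends of the gene, and the downstream promoter of Slc30a2 lies farthest from one, at 305 bp.

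Promoter sequences are shown for Mt1, Mt2 and Slc30a1, because MTF-1 is known to act there through a short motif, and for Slc39a1 as a member without it. They are RefSeq promoters on GRCm38.p6, plus strand, from 250 bases before the RefSeq start up to the last base before the first annotated start. Capitals mark the core of the metal response element, spelled TGCACNC or TGCGCNC and searched on both strands.
Mt1, chr8:94178839-94179081: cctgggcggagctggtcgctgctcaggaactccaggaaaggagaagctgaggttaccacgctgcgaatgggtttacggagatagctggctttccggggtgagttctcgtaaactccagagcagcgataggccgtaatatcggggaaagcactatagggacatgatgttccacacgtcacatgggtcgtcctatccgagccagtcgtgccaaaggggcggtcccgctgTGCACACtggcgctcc
Mt2, chr8:94172368-94172617: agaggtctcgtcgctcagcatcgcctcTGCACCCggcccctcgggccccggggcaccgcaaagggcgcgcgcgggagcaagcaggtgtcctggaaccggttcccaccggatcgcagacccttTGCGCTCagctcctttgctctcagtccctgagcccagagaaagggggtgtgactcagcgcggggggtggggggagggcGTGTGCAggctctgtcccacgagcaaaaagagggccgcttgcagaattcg
Slc30a1, chr1:191906531-191906766: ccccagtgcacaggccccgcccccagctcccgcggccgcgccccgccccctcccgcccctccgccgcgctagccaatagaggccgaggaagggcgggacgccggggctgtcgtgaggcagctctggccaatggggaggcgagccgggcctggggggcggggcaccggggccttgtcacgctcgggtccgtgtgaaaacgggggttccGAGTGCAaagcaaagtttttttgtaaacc
Slc39a1, chr3:90247942-90248171: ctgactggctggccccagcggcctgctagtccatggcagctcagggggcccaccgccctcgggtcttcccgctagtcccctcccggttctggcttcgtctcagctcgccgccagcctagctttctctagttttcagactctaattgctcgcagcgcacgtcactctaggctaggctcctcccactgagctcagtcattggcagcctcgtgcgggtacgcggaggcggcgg

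RefSeq promoter windows of 300 bases, which run 50 bases past the RefSeq start, were at hand for 6 of the 7 genes. The core was found 4 times in the window of Mt2, 3 times in that of Mt1, and 2 times each in those of Slc30a1 and Slc30a2. The windows of Slc39a1 and Mtf1 held 0 matches. Of 32851 promoters of the same length, 25.7% held 1 match or more, 7.11% held 2 or more, 1.97% held 3 or more and 0.517% held 4 or more. The matches of Mt1 lay 174, 149 and 131 bp before the highest position of its cluster, and those of Mt2 lay 387, 292, 214 and 160 bp before it. The windows of Mt1 and Mt2 end 102 and 115 bp before these positions, so that the bases next to the main start sites were not searched. At Slc30a1, 1 match lay 75 bp before the highest position and the other began 2 bp before it. At Slc30a2 both matches lay within the upstream promoter, 50 and 64 bp after the highest position of the upstream one. The core of the antioxidant response element, TGACNNNGC, was found 1 time each at Mt2, Slc30a1 and Slc39a1, and 12.4% of all promoters held it. These matches describe the letters, and binding was not measured.

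The libraries of experiment #1 held 18257657 to 39176649 tags in clusters and those of experiment #2 held 9359994 to 20914855. Levels are given as CPM after TMM normalisation within each experiment and are not compared between experiments. All 8 genes of the slow-fibre list, which also holds the general muscle genes Ckm and Acta1, had clusters. These summed to 12809 to 18565 CPM in experiment #1, and those of the 6 fast-fibre genes to 5514 to 10142 CPM. The 5 of 6 macrophage markers with clusters (Adgre1 had none) summed to 136 to 313 CPM in the HiT libraries and to 35.8 to 87.8 CPM in the other libraries of experiment #1. The 4 of 6 neutrophil markers with clusters (Ltf and Retnlg had none) summed to 0.122 to 1.56 CPM in experiment #1 outside the Dep group, and reached 133 CPM in Dep 1. In whole muscle, fewer cells of a type and less RNA per cell cannot be told apart. The p-values measure the spread between mice, and for the Mid libraries of experiment #2 also that between sequencing lanes.

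The Mid mice were first compared with the fed mice of the day before. From the Pre to the Mid, the metallothioneins, the upstream Slc30a2 promoter and the downstream Slc39a14 promoter rose between 6.67 and 21.6 fold. Slc30a1 rose 2.18 fold and the upstream Slc39a14 promoter 1.47 fold. By edgeR's quasi-likelihood test at an FDR below 0.05, 6 of the 9 promoters were higher and 0 lower, against 30.2% of all 10776 clusters called (15.4% called higher and 14.8% called lower). The median log2 fold change was 1.13 over the 9 promoters and 0.01 over all clusters. The Pre and Mid libraries did not overlap for 4 of the 9, and for 14.8% of all clusters. Of the 5 endothelial marker clusters 3 were lower and 1 was higher in the Mid, and their part in these changes was not tested.

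Mt2 had 25.7, 19.2, 12.9 and 22.0 CPM in the 4 Pre libraries, and 40.2 to 1131 CPM with a median of 299 CPM in the 8 Mid libraries. Every Mid library lay above every Pre library, and Mid 6 was the lowest and Mid 5 the highest of the Mid. The log2 fold change of 4.44 ± 0.59 (SE, FDR 3.82e-06) was the largest of the 9. Mt1 had 107, 73.9, 68.0 and 109 CPM in the Pre and 151 to 1226 CPM with a median of 509.9 CPM in the Mid. It again showed no overlap, with Mid 6 and Mid 5 at the ends of the Mid range, and its log2 fold change was 2.74 ± 0.37 (SE, FDR 5.01e-06). Mt1 started from the higher level and rose by the smaller factor.

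In the Pre the upstream promoter of Slc30a2 was weak, at 0.794, 0.382, 0.609 and 0.396 CPM, on 11 to 24 tags per library. In the Mid it had 1.90 to 21.2 CPM with a median of 6.51 CPM, above every Pre library. Its log2 fold change was 3.86 ± 0.51 (SE, FDR 3.73e-06). The stronger of the pair in the Pre was the downstream promoter, at 4.69 ± 0.6999 CPM (SD, n = 4), and had 6.26 ± 1.57 CPM (SD, n = 8) in the Mid. These ranges overlapped, and the log2 fold change of 0.42 ± 0.22 (SE, FDR 0.157) did not pass the test.

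In Slc39a14 the downstream promoter had 0.926, 0.452, 0.649 and 1.22 CPM in the Pre and 2.14 to 11.6 CPM with a median of 8.23 CPM in the Mid. All Mid libraries were above all Pre libraries, with a log2 fold change of 3.22 ± 0.44 (SE, FDR 5.29e-06). The main promoter of the gene, the upstream one, rose from 10.3 ± 1.26 CPM (SD, n = 4) to 15.1 ± 2.27 CPM (SD, n = 8). Its log2 fold change was 0.56 ± 0.12 (SE, FDR 0.000699). The call was lost with scaling by library size alone (0.47, FDR 0.0885) and with limma (0.46, FDR 0.0855).

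Slc30a1 rose from 4.45 ± 0.524 CPM (SD, n = 4) to 9.71 ± 2.27 CPM (SD, n = 8), a log2 fold change of 1.13 ± 0.18 (SE, FDR 3.79e-05). Mid 6, at 4.91 CPM, lay inside the Pre range, and the other 7 Mid libraries lay above it. Slc39a1 and Mtf1 did not pass the test. Slc39a1 had 15.2 ± 1.05 CPM (SD, n = 4) in the Pre and 12.8 ± 1.69 CPM (SD, n = 8) in the Mid, a log2 fold change of -0.25 ± 0.11 (SE, FDR 0.0713), and it was called lower with upper-quartile scaling (-0.32, FDR 0.0253) and without Mid 2 (-0.28, FDR 0.0465). Mtf1 had 13.9 ± 1.58 CPM (SD, n = 4) and 12.6 ± 1.93 CPM (SD, n = 8), a log2 fold change of -0.14 ± 0.10 (SE, FDR 0.314).

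**Figure D2:**
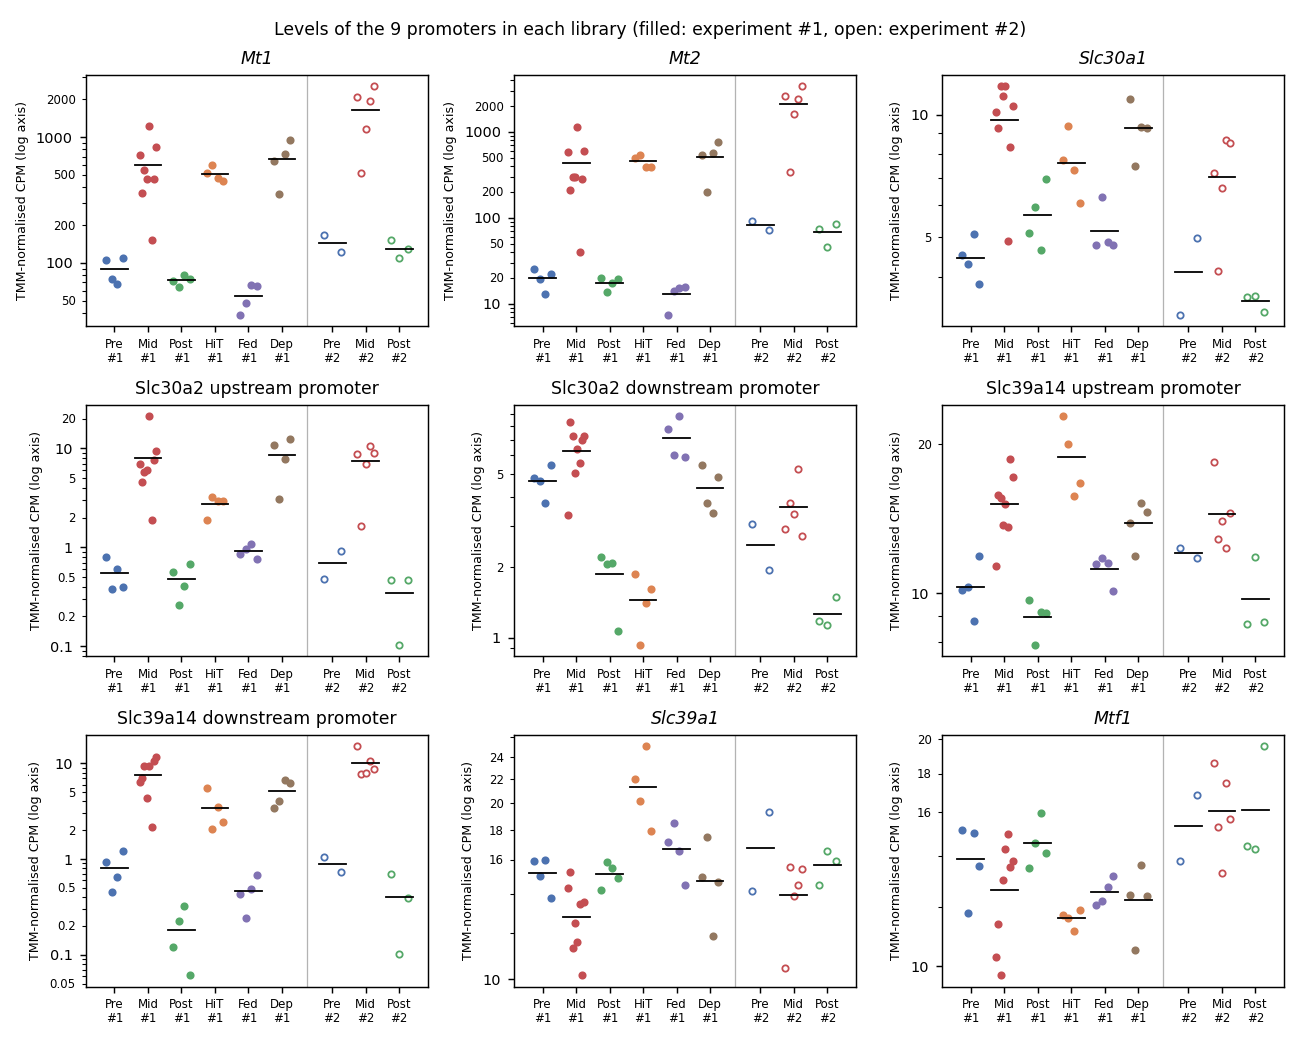
Level of each promoter in each library, as TMM-normalised CPM on a log axis, by group and experiment (filled for #1, open for #2, scaled separately). Points are libraries and black lines group means, and for Mt1 and Mt2 every Mid, HiT and Dep library of experiment #1 lies above every Pre, Post and Fed library.

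Mice given food again were compared with the Mid mice. In the Post the promoters that had risen were low again. By the same test 7 of the 9 promoters were lower in the Post than in the Mid and 0 were higher, against 35.0% of all clusters called (17.5% called higher and 17.5% called lower). The median log2 fold change was -1.76 over the 9 promoters and -0.01 over all clusters. The Mid libraries are shared with the comparison to the Pre, so these counts are not independent of it. Mt2 had 19.7, 13.5, 17.7 and 19.4 CPM in the Post, below every Mid library, with a log2 fold change of -4.62 ± 0.60 (SE, FDR 1.48e-06). Mt1 had 72.5, 65.0, 80.2 and 74.5 CPM, also below every Mid library, with -3.03 ± 0.38 (SE, FDR 9.67e-07).

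The lowest mean level in the Post was that of the downstream promoter of Slc39a14, which fell to 0.121, 0.225, 0.322 and 0.0612 CPM, on 2 to 8 tags per library. Its log2 fold change was -5.39 ± 0.53 (SE, FDR 3.18e-08). Its upstream counterpart fell to 8.97 ± 0.780 CPM (SD, n = 4), with -0.76 ± 0.12 (SE, FDR 2.04e-05). Both promoters of Slc30a2 fell, the upstream one with a log2 fold change of -4.04 ± 0.52 (SE, FDR 1.45e-06) and the downstream one with -1.76 ± 0.24 (SE, FDR 3.51e-06). Slc30a1 also fell, with -0.77 ± 0.18 (SE, FDR 0.00123). Slc39a1 (0.25 ± 0.11, FDR 0.0715) and Mtf1 (0.20 ± 0.10, FDR 0.112) did not pass the test, and both were called higher in the Post with upper-quartile scaling.

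Between the Post and the Pre, 2 of the 9 promoters differed, both lower in the Post, against 1.85% of all clusters called (1.05% called higher and 0.798% called lower). At the downstream promoter of Slc30a2 the levels were 2.22, 2.06, 2.09 and 1.07 CPM in the Post and 4.83, 4.69, 3.77 and 5.47 CPM in the Pre. The groups did not overlap, and the log2 fold change was -1.34 ± 0.26 (SE, FDR 0.00694). This promoter had not passed the test between the Mid and the Pre. Also lower was the downstream promoter of Slc39a14, by a log2 fold change of -2.17 ± 0.56 (SE, FDR 0.0419), on 2 to 8 tags per library in the Post and 13 to 34 tags per library in the Pre. That call was lost with library-size scaling (-2.24, FDR 0.138), with a fit of only the compared groups (-2.14, FDR 0.0727) and with limma (-1.76, FDR 0.134). It was also lost without any 1 of Post 1, Post 2, Post 4, Pre 1, Pre 3 and Pre 4 (FDR 0.0645 to 0.153). The same held without any 1 of Fed 1, Fed 3, HiT 3, HiT 4 and Mid 2, which enter only the estimate of spread and the scaling (FDR 0.0505 to 0.054).

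Mice that were fasted but kept warm did not enter torpor. In these HiT mice 7 of the 9 promoters were higher than in the Pre and 1 was lower, against 18.5% of all clusters called higher and 14.9% called lower (33.4% in all). The groups did not overlap for 8 of the 9, and for 35.1% of all clusters. Mt2 had 502, 541, 391 and 389.5 CPM in the HiT, with a log2 fold change of 4.51 ± 0.62 (SE, FDR 3.8e-06) against the Pre. Mt1 had 521, 601, 476 and 447 CPM, with 2.52 ± 0.39 (SE, FDR 2.01e-05). Both lay far above the Pre and close together, while the Mid libraries of Mt2 spread from 40.2 to 1131 CPM. The promoters of Slc30a2 were called in opposite directions in these warm fasted mice, the upstream one higher than in the Pre (2.31 ± 0.53, FDR 0.00131) and the downstream one lower (-1.69 ± 0.27, FDR 2.21e-05).

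Between the Mid and the HiT, 5 of the 9 promoters differed, 3 higher and 2 lower in the Mid, against 41.0% of all clusters called (19.2% higher and 21.8% lower). The metallothioneins were not among them, with log2 fold changes of -0.07 ± 0.46 (SE, FDR 0.915) for Mt2 and 0.22 ± 0.32 (SE, FDR 0.613) for Mt1, and errors of this size do not show that the groups were alike. In Slc30a2 the upstream promoter had 1.90, 3.21, 2.92 and 2.92 CPM in the HiT and was higher in the Mid, with 1.54 ± 0.43 (SE, FDR 0.00537). The downstream promoter had 1.87, 0.931, 1.40 and 1.61 CPM in the HiT, below every Mid library, with 2.10 ± 0.25 (SE, FDR 2.04e-07).

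The downstream promoter of Slc39a14 had 5.58, 2.07, 3.49 and 2.42 CPM in the HiT and was higher in the Mid, with 1.16 ± 0.38 (SE, FDR 0.016). This call was lost without HiT 2 (0.99, FDR 0.0679) or HiT 4 (1.07, FDR 0.0525). The opposite direction was found at the upstream promoter of Slc39a14, which was lower in the Mid than in the HiT, with -0.31 ± 0.11 (SE, FDR 0.0271). It lost its call without HiT 1 (-0.18, FDR 0.229), HiT 2 (-0.28, FDR 0.0833) or Mid 6 (-0.27, FDR 0.0565), and with scaling by library size alone (-0.25, FDR 0.314). The call was also lost with limma (-0.19, FDR 0.463) and with a fit of only the compared groups (-0.31, FDR 0.0838).

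Slc39a1 had 22.1, 20.2, 25.1 and 17.96 CPM in the HiT, above every Mid library, and was lower in the Mid with a log2 fold change of -0.74 ± 0.10 (SE, FDR 2.73e-06). All 5 macrophage marker clusters were also lower in the Mid than in the HiT, with a median log2 fold change of -2.18, and their part in the levels of Slc39a1 and Slc39a14 was not tested. Slc30a1 was not called between the Mid and the HiT (0.35 ± 0.17, FDR 0.109), but was called higher in the Mid without Mid 6 (0.47, FDR 0.0057).

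Mice that kept their food in the cool did not enter torpor either. Between the Fed and the Pre, edgeR called 0 of the 9 promoters, with 1 at an unadjusted p under 0.05, against 11.2% of all clusters (5.88% higher and 5.32% lower). Mt2 had 7.46, 14.1, 15.2 and 15.8 CPM in the Fed and Mt1 had 38.8, 47.7, 66.9 and 66.2 CPM. The difference in Mt1 did not pass the test (-0.701 ± 0.38, FDR 0.233). The 1 promoter with an unadjusted p under 0.05 was the downstream one of Slc30a2, which was higher in the Fed (0.60 ± 0.25, FDR 0.112). Slc30a2 had 0.852, 0.963, 1.07 and 0.754 CPM at its upstream promoter and the downstream promoter of Slc39a14 had 0.426, 0.241, 0.491 and 0.688 CPM.

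Between the Mid and the Fed, 6 of the 9 promoters were higher in the Mid and 1 was lower, against 35.2% of all clusters called (16.6% called higher and 18.6% called lower). Mt2 differed the most, with a log2 fold change of 5.03 ± 0.61 (SE, FDR 9.72e-07). Next came the downstream promoter of Slc39a14 with 4.003 ± 0.47 (SE, FDR 6.13e-07), Mt1 with 3.44 ± 0.39 (SE, FDR 4.52e-07) and the upstream promoter of Slc30a2 with 3.12 ± 0.48 (SE, FDR 1.91e-05). For these 4 every Mid library lay above every Fed library, and 13.6% of all clusters did not overlap. In the same comparison 5 of the 6 red blood cell marker clusters and 4 of the 5 endothelial ones were lower in the Mid and 1 endothelial one was higher, and their part was not tested. Slc30a1 was higher by 0.90 ± 0.18 (SE, FDR 0.0003) and the upstream promoter of Slc39a14 by 0.43 ± 0.12 (SE, FDR 0.00488). The latter was not called with library-size scaling (0.31, FDR 0.246) or with limma (0.31, FDR 0.25). Slc39a1 was lower in the Mid, with -0.39 ± 0.10 (SE, FDR 0.00534). Mtf1 (0.01 ± 0.10, FDR 0.958) and the downstream promoter of Slc30a2 (-0.19 ± 0.21, FDR 0.521) did not pass the test.

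**Figure D3:**
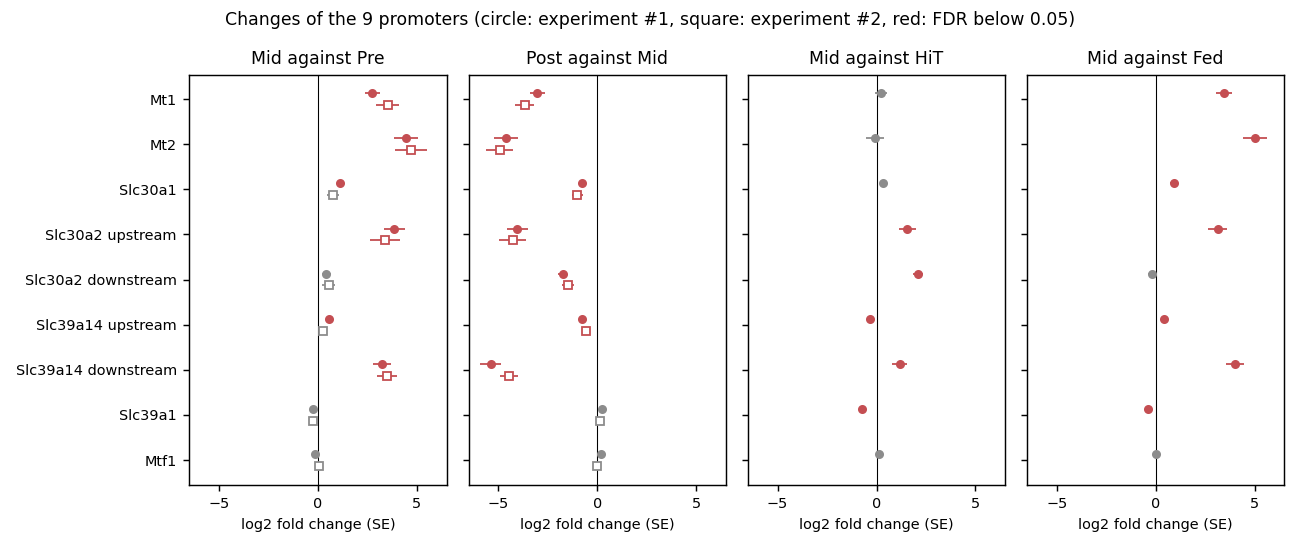
Log2 fold change of each promoter in 4 comparisons, with its standard error as the bar (circles for experiment #1, open squares for experiment #2, red for an FDR below 0.05, grey otherwise). Mt1 and Mt2 are red in every panel but that of Mid against HiT, and Mtf1 is grey in all 4.

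Dep mice were fasted in the cool while touch kept them out of torpor. Between the Dep and the Mid, edgeR called 0 of the 9 promoters, with 1 at an unadjusted p under 0.05, against 2.03% of all clusters. DESeq2 also called 0 of the 9, and 479 of all clusters. As limma called 0 of all clusters, its 0 of the 9 says nothing about these promoters. Mt2 had 538, 198, 566 and 770.3 CPM in the Dep and Mt1 had 640.1, 352, 734 and 942 CPM, all within the Mid range. The log2 fold changes were 0.26 ± 0.45 (SE, FDR 0.788) for Mt2 and 0.16 ± 0.32 (SE, FDR 0.815) for Mt1. At the upstream promoter of Slc30a2 the Dep had 10.9, 3.08, 7.85 and 12.5 CPM (0.10 ± 0.39, FDR 0.908) and the downstream promoter of Slc39a14 had 3.39, 4.04, 6.68 and 6.27 CPM (-0.58 ± 0.37, FDR 0.388). These errors leave room for differences in either direction.

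Against the Pre, 6 of the 9 promoters were higher in the Dep and 0 lower, against 25.8% of all clusters called (13.7% called higher and 12.1% called lower), and for these 6 the groups did not overlap, as for 30.9% of all clusters. The log2 fold changes were 4.69 ± 0.62 (SE, FDR 4.56e-06) for Mt2 and 2.90 ± 0.40 (SE, FDR 7.53e-06) for Mt1. They were 3.96 ± 0.54 (SE, FDR 6.59e-06) for the upstream promoter of Slc30a2, 2.64 ± 0.46 (SE, FDR 0.000128) for the downstream promoter of Slc39a14 and 1.06 ± 0.20 (SE, FDR 0.000295) for Slc30a1. For the upstream promoter of Slc39a14 it was 0.43 ± 0.13 (SE, FDR 0.0169). This call was lost without Dep 3 (0.39, FDR 0.0521) or Pre 3 (0.37, FDR 0.0677), with library-size scaling (0.25, FDR 0.432) and with limma (0.25, FDR 0.424). All 4 neutrophil marker clusters were called higher in the Dep than in the Pre. Their sum was 133 CPM in Dep 1, but the Dep median was 0.838 CPM, against up to 0.936 CPM in the Pre. Of these 6 promoters, Dep 1 was the highest Dep library for Slc30a1 and the lowest for the downstream promoter of Slc39a14, and without Dep 1 all 6 were still called.

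Of the pairs of groups not described so far, the Post and the HiT differed in 7 of the 9 promoters, against 29.2% of all clusters, the Fed and the HiT in 8 (43.2%), the Dep and the HiT in 4 (26.5%), the Post and the Fed in 1 (22.2%), the Dep and the Fed in 6 (38.6%) and the Dep and the Post in 7 (24.6%). These share libraries with the comparisons above. Ordered by mean level over the 6 groups of experiment #1, the metallothioneins fell into a high and a low set. For Mt2 the order was Dep, HiT, Mid, Pre, Post and Fed, at 518, 456, 433, 19.98, 17.6 and 13.2 CPM, and the Mid and the Pre were the only neighbours that differed. For Mt1 it was Dep, Mid, HiT, Pre, Post and Fed, at 667, 597, 511, 89.4, 73.1 and 54.9 CPM, and the HiT and the Pre were the only neighbours that differed. The downstream promoter of Slc39a14 ran from Mid over Dep, HiT, Pre and Fed to Post, at 7.64, 5.10, 3.39, 0.813, 0.461 and 0.182 CPM, again with a difference between neighbours only from the HiT to the Pre.

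In the HiT the upstream promoter of Slc30a2 had an intermediate level. Its means ran from Dep over Mid, HiT, Fed and Pre to Post, at 8.57, 7.96, 2.74, 0.911, 0.545 and 0.476 CPM, and the Mid differed from the HiT and the HiT from the Fed. Its downstream counterpart followed another order, from Fed over Mid, Pre, Dep and Post to HiT, at 7.15, 6.26, 4.69, 4.37, 1.86 and 1.45 CPM, with a difference between neighbours only from the Dep to the Post. Slc30a1 ran from 9.71 CPM in the Mid to 4.45 CPM in the Pre, and no neighbours differed.

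Slc39a14 at its upstream promoter was highest in the HiT, at 18.8 ± 3.23 CPM (SD, n = 4), followed by the Mid, which differed from it, and lowest in the Post. Slc39a1 was highest in the HiT, at 21.3 ± 3.00 CPM (SD, n = 4), followed by the Fed, which differed from it, and lowest in the Mid. Mtf1 stayed between 11.6 CPM in the HiT and 14.5 CPM in the Post, and no neighbours differed, although the Post and the HiT at the ends of the order did (0.33 ± 0.12, FDR 0.0327).

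The balance between the metallothioneins was measured as the log2 ratio of Mt2 to Mt1 tags, which does not depend on library scaling. It was -2.17 ± 0.21 (SD, n = 4) in the Pre, -0.72 ± 0.54 (SD, n = 8) in the Mid and -2.07 ± 0.19 (SD, n = 4) in the Post. It was -0.17 ± 0.10 (SD, n = 4) in the HiT, -2.08 ± 0.26 (SD, n = 4) in the Fed and -0.44 ± 0.27 (SD, n = 4) in the Dep. Mt1 had more tags than Mt2 in all 28 libraries of experiment #1. The difference was 1.45 (exact permutation test, two-sided, p = 0.00404, adjusted p = 0.0135) between the Mid and the Pre, -1.35 (exact permutation test, two-sided, p = 0.00808, adjusted p = 0.0135) between the Post and the Mid, and 1.36 (exact permutation test, two-sided, p = 0.00808, adjusted p = 0.0135) between the Mid and the Fed, with p-values adjusted over 5 comparisons. The ratio was lower in the Mid than in the HiT, with a difference of -0.55 (exact permutation test, two-sided, p = 0.0242, adjusted p = 0.0303), and between the Dep and the Mid the difference was 0.28 (exact permutation test, two-sided, p = 0.347, adjusted p = 0.347). The smallest p that 8 against 4 libraries allow is 0.00404. In experiment #2 the ratio was -0.82 ± 0.07 (SD, n = 2) in the Pre, 0.19 ± 0.45 (SD, n = 5) in the Mid and -0.97 ± 0.33 (SD, n = 3) in the Post. Each of these means lay above that of the same group in experiment #1, and the cause was not tested. Mt2 had more tags than Mt1 in Mid 9, Mid 11, Mid 12 and Mid 13.

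Without 1 of HiT 1, HiT 2 or HiT 4 the difference in the ratio between the Mid and the HiT lost its call (adjusted p 0.0606 to 0.0909). The ratio of Mid 6 was -1.91, among the Post and Fed values of experiment #1. Mt1 and Mt2 are related in sequence, and tags of one could have been placed on the other in mapping, which was not tested.

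The balance between the promoters of Slc30a2 also differed between groups. The upstream promoter gave 14.1, 7.53, 13.9 and 6.75% of the tags of the gene in the 4 Pre libraries, and 51.7% ± 16.6 (SD, n = 8) in the Mid, where the libraries had 25.5 to 76.9% with a median of 53.4%. The groups did not overlap, and the difference in percentage points was 41.1 (exact permutation test, two-sided, p = 0.00404, adjusted p = 0.00808), adjusted over 10 comparisons in both genes. The share was 21.6% ± 11.9 (SD, n = 4) in the Post and 11.4% ± 1.64 (SD, n = 4) in the Fed, and the differences were -30.1 (exact permutation test, two-sided, p = 0.0121, adjusted p = 0.0202) between the Post and the Mid and 40.3 (exact permutation test, two-sided, p = 0.00404, adjusted p = 0.00808) between the Mid and the Fed. It was 65.0% ± 11.2 (SD, n = 4) in the HiT and 63.3% ± 12.4 (SD, n = 4) in the Dep, with differences of -13.3 (exact permutation test, two-sided, p = 0.186, adjusted p = 0.232) between the Mid and the HiT and 11.6 (exact permutation test, two-sided, p = 0.242, adjusted p = 0.269) between the Dep and the Mid. The call for the Post was lost without Post 1, Post 2 or Post 3, each with an adjusted p of 0.0519.

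In Slc39a14 the upstream promoter gave 91.6, 95.8, 93.1 and 90.7% of the tags in the Pre and 67.8% ± 9.09 (SD, n = 8) in the Mid, with a difference in percentage points of -25.0 (exact permutation test, two-sided, p = 0.00404, adjusted p = 0.00808). The downstream promoter thus held its largest share in the Mid. The share of the upstream promoter was 98.0% ± 1.28 (SD, n = 4) in the Post, 96.0% ± 1.80 (SD, n = 4) in the Fed, 85.0% ± 4.82 (SD, n = 4) in the HiT and 73.6% ± 5.06 (SD, n = 4) in the Dep. The differences were 30.1 (exact permutation test, two-sided, p = 0.00404, adjusted p = 0.00808) between the Post and the Mid, -28.1 (exact permutation test, two-sided, p = 0.00404, adjusted p = 0.00808) between the Mid and the Fed and 5.76 (exact permutation test, two-sided, p = 0.283, adjusted p = 0.283) between the Dep and the Mid. That between the Mid and the HiT was -17.2 (exact permutation test, two-sided, p = 0.0162, adjusted p = 0.0231), which did not pass without HiT 2 or HiT 4 (adjusted p 0.0693 for each).

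**Figure D4:**
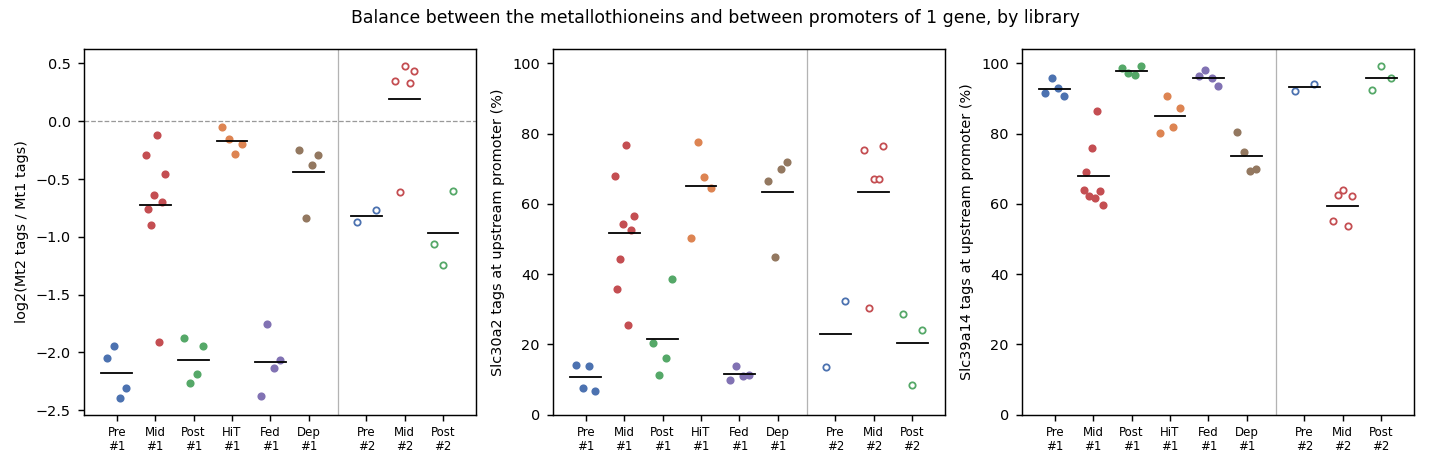
Log2 ratio of Mt2 to Mt1 tags, percent of Slc30a2 tags at the upstream promoter and percent of Slc39a14 tags at the upstream promoter, by group and experiment (filled for #1, open for #2). Points are libraries and black lines group means, and Mid 6 and Mid 10 have the lowest ratio of the Mid libraries of their experiment, at -1.91 and -0.61.

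Experiment #2 repeated the Pre, Mid and Post in other mice. The Pre and Mid 9 to Mid 12 were sequenced in lane 3, and Mid 13 and the Post in lane 4. From the Pre to the Mid, 4 of the 9 promoters were higher and 0 lower, against 9.74% of all 10816 clusters called (5.30% called higher and 4.44% called lower). Mt2 had 91.2 and 72.3 CPM in the Pre and 2654, 339.7, 1610.1, 2435 and 3430.5 CPM in the Mid, with a log2 fold change of 4.68 ± 0.81 (SE, FDR 0.00628). Mt1 had 167 and 123 CPM and 2089, 519, 1156, 1941 and 2545 CPM, with 3.51 ± 0.57 (SE, FDR 0.0047). For both, Mid 10 was the lowest of the Mid.

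The downstream promoter of Slc39a14 had 1.05 and 0.737 CPM in the Pre and 15.05, 7.72, 7.93, 10.7 and 8.77 CPM in the Mid, with a log2 fold change of 3.47 ± 0.50 (SE, FDR 0.00272). In Slc30a2 the upstream promoter had 0.476 and 0.922 CPM and 8.81, 1.64, 6.90, 10.7 and 8.93 CPM, with 3.38 ± 0.76 (SE, FDR 0.0201). The calls of Mt1, Mt2 and the upstream promoter of Slc30a2 were lost without Pre 5 or without Pre 6 (FDR 0.0508 to 0.162). Slc30a1 did not pass (0.77 ± 0.30, FDR 0.144), but did without Mid 10 (0.92, FDR 0.0301).

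From the Mid to the Post of experiment #2, 7 of the 9 promoters were lower and 0 higher, against 16.4% of all clusters called (7.73% called higher and 8.65% called lower). Mt2 fell to 73.6, 46.1 and 84.3 CPM, with -4.94 ± 0.68 (SE, FDR 0.000835), and Mt1 to 153, 109 and 128 CPM, with -3.66 ± 0.48 (SE, FDR 0.000603). The log2 fold change was -4.46 ± 0.44 (SE, FDR 0.000126) for the downstream promoter of Slc39a14, and for the upstream and downstream promoters of Slc30a2 it was -4.27 ± 0.67 (SE, FDR 0.00174) and -1.50 ± 0.31 (SE, FDR 0.00767). Slc30a1 had -1.01 ± 0.26 (SE, FDR 0.024) and the upstream promoter of Slc39a14 -0.57 ± 0.15 (SE, FDR 0.0281). The call of Slc30a1 was lost without Mid 12, Post 5, Post 6 or Post 7 (FDR 0.0543 to 0.0753) and that of the upstream Slc39a14 promoter without Mid 13, Post 5 or Post 7 (FDR 0.0519 to 0.12). With lane as a term the calls of the downstream Slc30a2 promoter (-1.10, FDR 0.189), Slc30a1 (-1.28, FDR 0.0859) and the upstream Slc39a14 promoter (-0.59, FDR 0.211) were lost. Between the Post and the Pre, edgeR called 0 of the 9, with 1 at an unadjusted p under 0.05, against 0.111% of all clusters (0.0277% higher and 0.0832% lower), and lane and group cannot be told apart there. In tests of the difference between the experiments, edgeR called 0 of the 9 for the change from the Pre to the Mid. It called 0 for that from the Mid to the Post, with 0 at an unadjusted p under 0.05 in either. As 0% of all clusters were called, these tests do not show that the changes were alike. The standard error reached 1.13, at the upstream promoter of Slc30a2 from the Pre to the Mid.

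Among the Mid libraries, 1 library of each experiment stood at the low end of the same promoters. Mid 6 in experiment #1 and Mid 10 in experiment #2 were the lowest of the Mid for Mt1, Mt2, Slc30a1, the upstream promoter of Slc30a2 and the downstream promoter of Slc39a14. Mid 5 was the highest of its experiment for the first 4 of these. The log2 fold change of Mt2 from the Pre to the Mid was 4.63 without Mid 6 and 4.06 without Mid 5.

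Few other zinc genes had clusters, and 30.2% of all clusters were called from the Pre to the Mid. Of the other zinc exporters, 3 of 8 genes had a cluster, and 0 of 3 clusters were called from the Pre to the Mid. Slc30a9 alone differed between the Mid and the HiT (0.53 ± 0.10, FDR 0.00013), where 41.0% of all clusters were called. Of the other importers, 3 of 12 genes had a cluster, and 0 were called from the Pre to the Mid. Slc39a9 was lower in the Post than in the Mid (-0.31 ± 0.12, FDR 0.0491), where 35.0% of all clusters were called. Slc39a3 (-0.42 ± 0.10, FDR 0.00193) and Slc39a13 (-0.39 ± 0.14, FDR 0.0354) were lower in the Mid than in the Fed, where 35.2% of all clusters were called. Of the other metallothioneins Mt3 had a cluster, which was not called in the comparisons of the Mid with the Pre, Post, HiT, Fed and Dep, and Mt4 had none. Of the 6 clusters of copper genes 1 rose and 1 fell from the Pre to the Mid, where 15.4% of all clusters were called higher and 14.8% lower. The cluster that rose was that of the copper-zinc superoxide dismutase gene Sod1 (0.24 ± 0.08, FDR 0.0278). The one that fell was that of the copper chaperone gene Atox1 (-0.38 ± 0.08, FDR 0.000502).

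Of 10 clusters of iron genes 2 rose and 1 fell from the Pre to the Mid, a share close to the 30.2% called of all clusters. Hmox1, the gene of heme oxygenase, rose (4.59 ± 0.83, FDR 0.000163), Ftl1, of ferritin light chain, rose (0.47 ± 0.17, FDR 0.0446), and Tfrc, of the transferrin receptor, fell (-2.30 ± 0.18, FDR 7.94e-09). In Mid against HiT, 2 of the 10 were higher, among them Tfrc (0.80 ± 0.20, FDR 0.00241), and 0 were lower. Of all clusters 19.2% were called higher there and 21.8% lower.

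Of 10 clusters of IL-6 and STAT3 signalling, a pathway known to induce metallothioneins and Slc39a14, 5 rose and 1 fell from the Pre to the Mid, where 15.4% of all clusters were called higher and 14.8% lower. The largest changes were those of Cebpd (2.47 ± 0.30, FDR 1.36e-06), Il6ra (1.56 ± 0.24, FDR 2.56e-05) and Cebpb (0.73 ± 0.11, FDR 1.94e-05). In Mid against HiT, 4 were higher and 3 lower, against 19.2% and 21.8% of all clusters, and Socs3, a feedback inhibitor induced by STAT3, was much lower in the Mid (-2.53 ± 0.21, FDR 1.12e-09). Of 10 clusters of the glucocorticoid list, which holds receptor targets and the receptor gene Nr3c1, 8 rose and 1 fell from the Pre to the Mid, against the same 15.4% and 14.8% of all clusters, with a median log2 fold change of 0.88. Per1 (2.13 ± 0.31, FDR 1.23e-05) and Tsc22d3 (1.57 ± 0.24, FDR 1.94e-05) changed the most. In Mid against HiT, 8 of these 10 were higher and 0 lower, against 19.2% and 21.8% of all clusters, among them Sgk1 (1.28 ± 0.15, FDR 1.33e-07) and Klf9 (1.04 ± 0.13, FDR 5.64e-07). In HiT against Pre, 2 of the 10 glucocorticoid clusters were higher and 3 lower. Of the 10 IL-6 and STAT3 clusters 7 were higher there and 1 was lower. Of all clusters 18.5% were called higher in that comparison and 14.9% lower. The part of either pathway in the metallothionein levels was not tested.

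Over the 28 libraries of experiment #1, the clusters of other genes most like Mt2 by Pearson correlation of log2 CPM were those of Retreg1 (0.96), Slc25a34 (0.96), 2410006H16Rik (0.96), Hmox1 (0.95) and Lpcat3 (0.95). Over the 10 libraries of experiment #2 the same clusters had 0.96, 0.97, 0.82, 0.98 and 0.96. For the upstream promoter of Slc39a14 the most alike were Sulf1 (0.88), Noc3l (0.87), Alpk2 (0.87), Iba57 (0.85) and Tacc2 (0.85), with 0.68, 0.27, 0.82, 0.83 and 0.79 in experiment #2. Among the members, Mt1 and Mt2 had a correlation of 0.99 over the 28 libraries, Mt2 and Slc30a1 0.86, Mt2 and the upstream promoter of Slc30a2 0.91, and Mt2 and the downstream promoter of Slc30a2 -0.07. These values describe libraries that share groups.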

How the data were processed

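Soleus RNA of 38 mice was measured by nAnT-iCAGE. Before deposit, the authors aligned trimmed tags to mm10 (GRCm38) by bwa and hisat2 and grouped start sites into clusters with PromoterPipeline. The deposited values used here are the count of tags per cluster and library, not normalised. A TPM column per library was also deposited, in which these counts are scaled by the library total. Counts of the 10819 clusters were tested here in R 4.3.3 with edgeR 4.0.16 (quasi-likelihood F test, TMM), in 1 fit of all groups per experiment, over the 10776 and 10816 clusters with any tag. FDRs are Benjamini-Hochberg values over all clusters of a comparison. The standard error is the log2 fold change over the square root of F. Ratios and promoter shares were compared by exact permutation tests in scipy 1.17.1 (Python 3.11.15). DESeq2 1.42.0, limma 3.58.1 (log2(TPM + 0.1)), other scalings, a filter on low counts, blocking on replicate number and leaving out 1 library at a time were alternatives. The scripts were tested on simulated data. No libraries of a group were duplicates (lowest chi-square per cluster 12.4 over 72 pairs).

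Every cluster of the 7 genes is named, from each list at most the 3 called clusters with the largest change per comparison, and for likeness the 5 clusters most correlated with Mt2 and with the highest cluster of Slc39a14. The genes and lists were chosen with earlier results of these data known. Intervals cover counting error only. The genome itself, GC content and oxygen consumption were not analysed here.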

Additional observations from a re-analysis of the deposited data

Results flagged for a closer look

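Over 84 sets of values, each from a group of 4, 5 or 8 libraries, tested for a sample far from the others (Dixon's criterion at the 95% level), 9 had one, and chance gives about 1 in 20. Most were single Mid libraries. Mid 6 stood apart for Slc30a1, at 4.91 CPM against 8.35 to 11.8 CPM in the other Mid libraries of experiment #1, and for the log2 ratio of Mt2 to Mt1, at -1.91 against -0.89 to -0.12. Mid 10 stood apart in experiment #2 for the same ratio, at -0.61 against 0.33 to 0.48, for the upstream promoter of Slc30a2, at 1.64 CPM against 6.90 to 10.7 CPM, and for the share of that promoter, at 30.3% (95% Wilson interval 21.8 to 40.5) against 67.1 to 76.6%. Mid 9 had the lowest Slc39a1 level of experiment #2, at 10.4 CPM against 13.9 to 15.6 CPM in the other Mid libraries.

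Among the other groups, Fed 1 had 7.46 CPM of Mt2 against 14.1 to 15.8 CPM. Fed 2 had 6.30 CPM of Slc30a1 against 4.79 to 4.88 CPM, and it also had the highest sum of red blood cell markers, at 13752 CPM, whose part was not tested. Post 4 had 1.07 CPM at the downstream promoter of Slc30a2 against 2.06 to 2.22 CPM.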

How the results depend on the processing

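Of 90 fold changes of the 9 promoters in 10 comparisons, 44 passed the threshold. Over 1449 alternatives to these 44, 1401 kept the direction and the call, 48 kept only the direction and 0 reversed. The number of promoters called between the Post and the Pre was 1 with library size only, with only the compared groups and with limma, and 1 to 2 with each library left out. With each library left out it was 3 to 5 between the Mid and the HiT (3 without HiT 2; 6 with the replicate block) and, in experiment #2, 1 to 5 between the Mid and the Pre (1 without Pre 5 or Pre 6). It was 4 there between the Post and the Mid with lane as a term. In lane 3 only, chosen after seeing the data, it was 3 for the Mid and the Pre. In experiment #2 the ratio of Mt2 to Mt1 differed by 1.01 (Mid against Pre) and -1.16 (Post against Mid), the upstream share of Slc30a2 by 40.4 and -43.0 percentage points and that of Slc39a14 by -33.7 and 36.3, none past the threshold. Neither comparison could pass it after adjustment over these 6 tests. The smallest p of the exact permutation test is 0.0952 with 5 against 2 libraries and 0.0357 with 3 against 5. With each library left out, the ratio differed by -0.64 to -0.38 between the Mid and the HiT, the share of Slc30a2 by -35.8 to -26.5 between the Post and the Mid and the share of Slc39a14 by -19.8 to -15.3 between the Mid and the HiT.

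Reversals were found only among changes that did not pass the test. With library size only, Mt2 Mid against HiT was 0.031, Mtf1 Mid against Fed -0.12 and the upstream Slc30a2 promoter Dep against Mid -0.065. Mtf1 Mid against Fed was -0.037 with upper-quartile scaling, -0.0097 with only the compared groups and -0.11 with limma, and Slc39a1 Post against Pre was 0.013 with only the compared groups. With each library left out, Post against Pre ranged from -0.051 to 0.037 for Slc39a1, -0.0042 to 0.12 for Mtf1 and -0.42 to 0.064 for the upstream Slc30a2 promoter, and Mid against HiT from -0.45 to 0.13 for Mt2 and -0.012 to 0.40 for Mt1. Mid against Fed ranged from -0.019 to 0.061 for Mtf1. Dep against Mid ranged from -0.16 to 0.021 for Slc30a1, -0.10 to 0.022 for Mtf1, -0.14 to 0.50 for the upstream Slc30a2 promoter, -0.0066 to 0.64 for Mt2 and -0.061 to 0.40 for Mt1, and Dep against Pre from -0.14 to 0.048 for Slc39a1 and -0.23 to 0.0020 for the downstream Slc30a2 promoter. In experiment #2, Mtf1 ranged from -0.074 to 0.23 for Mid against Pre and from -0.16 to 0.093 for Post against Mid. The cause of these changes was not tested.

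Same-numbered libraries of experiment #1 had a mean correlation of deviations of 0.0078 over 60 pairs, 20 of them over 0.1. For different numbers it was -0.0018 over 260 pairs, 98 of them over 0.1. No sign of pairing by replicate number was seen, which does not show that there was none. With the replicate number as a block, 7 promoters instead of 6 were called for Mid against Pre (Mtf1 -0.32, FDR 0.0221), Mtf1 was 0.39 for Post against Mid (FDR 0.00587), Slc30a1 0.47 for Mid against HiT (FDR 0.0289), the upstream Slc39a14 promoter 0.33 for Mid against Fed (FDR 0.078), and values near 0 reversed (Mtf1 Mid against HiT -0.062, Mt1 Mid against HiT -0.0013, Mtf1 Mid against Fed -0.18, Mtf1 Dep against Mid 0.14). In experiment #2 the Mid share no number with the other groups. The Pre and the Post share 5 and 6, and a fit over these 4 libraries with the number as a block, chosen after seeing the data, gave FDRs of 0.316 to 0.881 and reversed Mtf1 (-0.081).

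In Mid against Pre, scaling by library size alone called 1458 clusters, 534 of them higher, against 3253 and 1659, and upper-quartile scaling called 3590, 1282 of them higher. The same split was 1881 of 3771 for Post against Mid, 1788 of 3797 for Mid against Fed and 1479 of 2783 for Dep against Pre, and with upper-quartile scaling 2535 of 4006, 1395 of 3804 and 1171 of 3012. With library size only it was 509 of 2181 for Mid against Fed and 365 of 1444 for Dep against Pre. In experiment #2 it was 836 of 1772 for Post against Mid, 1090 of 1869 with upper-quartile scaling and 1105 of 1776 with library size only. Library-size scaling moved the median of all clusters from 0.0026 to -0.12 in Mid against Fed, from 0.02 to 0.11 in Mid against HiT and from -0.0014 to -0.18 in Dep against Pre. Levels under 1 CPM rest on few tags.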
